A study of Mus musculus with 16 samples.

Results

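The levels of 9 genes that mark T and B lymphocytes, *Cd3e*, *Cd3d*, *Cd3g*, *Cd4*, *Cd8a*, *Cd8b1*, *Lck*, *Cd79a* and *Ms4a1*, were followed through 16 RNA-seq libraries of mouse pancreatic islets. The members were chosen by gene symbol, and all 9 were listed in both expression tables, out of 17864 genes listed in either table and 16815 listed in both. The libraries formed 4 groups of 4. Flox islets came from B7-H4 fl/fl mice without Cre, and cKO islets from RIP-Cre;B7-H4 fl/fl mice, in which Cre under the rat insulin II promoter removes the floxed exon 2 of the B7-H4 gene, *Vtcn1*, in cells that use this promoter. Flox and cKO mice were on a normal chow diet, by the text of the study and not by the labels. Ctrl and OE islets came from mice put on a high-fat diet (HFD) at 6 weeks of age and kept on it for 8 weeks before control AAV (Ctrl) or AAV8-RIP-B7-H4 (OE) was infused into the pancreatic duct, and islets were taken 5 weeks after the virus. These HFD mice are WT in the deposited design text and Flox in the methods of the study. No label ties a library to a named animal, so p-values measure the spread between these libraries, which may in part be technical.

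T cells read peptides on MHC molecules through a T-cell receptor that signals through the CD3 chains, with CD4 or CD8 as the co-receptor, and the kinase LCK starts the signal inside the cell. B cells carry surface immunoglobulin that signals through the paired chains CD79A and CD79B, and mature B cells also carry CD20, the product of *Ms4a1*. Islets normally hold resident macrophages and few lymphocytes, and lymphocytes enter islets in autoimmune diabetes.

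All levels are FPKM (fragments per kilobase of transcript, scaled to the mapped fragments of the library) as deposited by the authors, a scale per length on which genes can be set side by side. The low values of each gene fell on a ladder of equal steps. With the relative depth of each library read from the commonest ratio of low values (0.914 to 1.18 of the median library), the values of all 9 members in all 16 libraries were whole numbers of steps, within 0.05 of a whole number. A step is what 1 fragment is worth, up to a factor shared by all libraries, and steps are called fragments from here on. They show how little lies behind a low value.

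*Ins2* (insulin) was between 27348 and 253857 FPKM in every library, and 19 genes of the exocrine acinar cell took between 2.18% (Ctrl5) and 75.4% (Ctrl3) of the summed FPKM. *Vtcn1* was between 0.0188 and 0.216 FPKM in Flox and between 0.0202 and 0.125 FPKM in cKO, so Flox and cKO libraries overlapped in the targeted gene, although these values count all its exons and not the floxed one alone. It was between 0.0636 and 0.371 FPKM in Ctrl and between 40.0 and 128 FPKM in OE. Ctrl5 stood apart in its leukocyte genes. For that reason OE is also compared with Ctrl without Ctrl5, for the members other than *Ms4a1* and the lists whose medians are named.

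The promoters of the 3 CD3 genes, which lie together on one chromosome and had their highest levels in the same library, and of *Cd79a*, which did not, are shown from RefSeq (GRCm38.p6, the assembly also called mm10), from 250 bases before the start to 50 bases after it, 5′ to 3′ on the strand of the gene. Capitals mark matches to GGAA, the core bound by ETS factors, and to CANNTG, the E-box, on either strand, and matches that overlap or touch run together.

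Cd3e, chr9:45009562-45009861, minus strand: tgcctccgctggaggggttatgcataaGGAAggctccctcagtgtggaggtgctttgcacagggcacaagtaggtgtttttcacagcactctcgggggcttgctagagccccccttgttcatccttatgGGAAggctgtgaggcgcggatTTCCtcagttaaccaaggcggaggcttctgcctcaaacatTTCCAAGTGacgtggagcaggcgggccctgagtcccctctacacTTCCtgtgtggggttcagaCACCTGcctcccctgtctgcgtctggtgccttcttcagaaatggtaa

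Cd3d, chr9:44981536-44981835, plus strand: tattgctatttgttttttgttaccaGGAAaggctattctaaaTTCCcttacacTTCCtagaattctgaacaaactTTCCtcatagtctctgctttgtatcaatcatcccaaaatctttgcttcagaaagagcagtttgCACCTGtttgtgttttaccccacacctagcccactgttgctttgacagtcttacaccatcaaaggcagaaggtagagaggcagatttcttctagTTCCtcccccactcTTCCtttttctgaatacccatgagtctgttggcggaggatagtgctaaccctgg

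Cd3g, chr9:44980382-44980681, minus strand: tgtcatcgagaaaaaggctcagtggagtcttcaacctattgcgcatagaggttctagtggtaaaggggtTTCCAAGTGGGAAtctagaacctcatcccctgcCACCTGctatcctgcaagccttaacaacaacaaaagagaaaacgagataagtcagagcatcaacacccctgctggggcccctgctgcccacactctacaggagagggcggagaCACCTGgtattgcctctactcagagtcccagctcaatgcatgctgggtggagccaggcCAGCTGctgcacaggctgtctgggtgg

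Cd79a, chr7:24897247-24897546, plus strand: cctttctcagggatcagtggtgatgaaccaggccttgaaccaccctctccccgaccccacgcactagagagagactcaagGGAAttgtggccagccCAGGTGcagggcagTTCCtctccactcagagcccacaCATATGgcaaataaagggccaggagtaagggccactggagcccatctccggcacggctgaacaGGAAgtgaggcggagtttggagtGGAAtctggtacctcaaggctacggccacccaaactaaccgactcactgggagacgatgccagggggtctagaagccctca

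GGAA matched 5 times in the *Cd3e* window, 6 times in *Cd3d*, 2 times in *Cd3g* and 4 times in *Cd79a*, and at least 1 match is held by 96.0% of 32851 RefSeq promoter windows of this length. CANNTG matched 2 times in *Cd3e*, 1 time in *Cd3d*, 4 times in *Cd3g* and 2 times in *Cd79a*, and 72.3% of all windows hold it. TATAAA matched in none of the 4 windows and in 13.6% of all windows. *Cd3g* (chr9:44969572-44980431, minus strand) and *Cd3d* (chr9:44981786-44987339, plus strand) start 1355 bases apart and run away from each other, and *Cd3e* (chr9:44998740-45009627, minus strand) lies beyond *Cd3d*. *Cd3e* overlaps *Gm48719* and *Gm48720*, *Lck* (chr4:129548344-129573641, minus strand) with *Mir8119*, and *Ms4a1* (chr19:11249675-11266241) overlaps *4930526L06Rik*. The sources used here do not say whether counting used strand, so fragments of these pairs may be shared. *Cd79a* (chr7:24897381-24902197, plus strand) overlaps no annotated gene, and the next gene downstream, *Arhgef1*, begins 715 bases after its end.

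The 6 surface genes of T cells, the CD3 chains and the co-receptors, were at or near 0 in all 8 Flox and cKO libraries and were high in a single HFD library, Ctrl5. Over these 6 genes the 8 Flox and cKO libraries held 71 fragments in all, the 4 OE libraries 192 and the 4 Ctrl libraries 936, of which 828 were in Ctrl5. Ctrl5 thus held 69.1% of the 1199 fragments of the 16 libraries, and OE4 held 10.9%. In whole islets, fewer cells of a type and less RNA per cell cannot be told apart. The plot of all members by library shows this single high point in the Ctrl column of each T-cell panel.

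**Figure D1:**
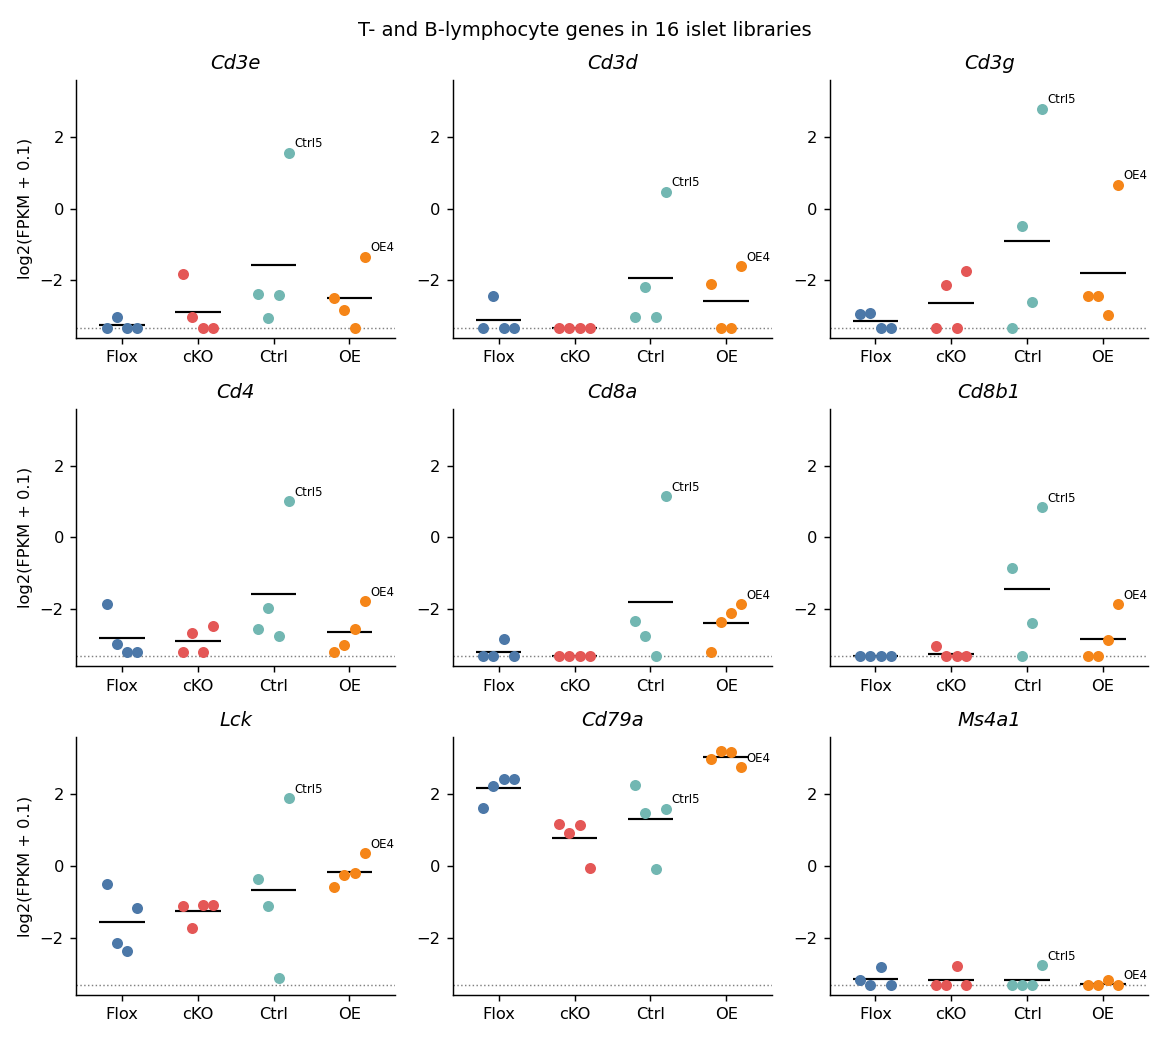
Level of each of the 9 members in each of the 16 libraries, as log2(FPKM + 0.1) on the vertical axis, with 1 point per library, grouped as Flox, cKO, Ctrl and OE, a black bar at the group mean of the plotted values and a dotted line at 0 FPKM. Ctrl5 is the highest Ctrl point for every T-cell gene, at 1.30 FPKM for Cd3d up to 6.84 FPKM for Cd3g, while for Cd79a the cKO points lie below all Flox points and the OE points above all Ctrl points.

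*Cd3e*, a chain needed to bring the T-cell receptor to the surface, was at 0, 0.0219, 0 and 0 FPKM in Flox16, 17, 20 and 21, and at 0.180, 0.0227, 0 and 0 FPKM in cKO8, 9, 12 and 38. It was at 0.0925, 0.0203, 0.0897 and 2.87 FPKM in Ctrl1, 2, 3 and 5, and at 0.0783, 0.0398, 0 and 0.295 FPKM in OE1 to OE4. The groups overlapped in both comparisons, and the value in Ctrl5 came from 120 fragments against 15 in OE4 and 8 in cKO8, the highest library of Flox and cKO. *Cd3g*, a second signalling chain, had the highest level of the 3 in Ctrl5, at 6.84 FPKM and 200 fragments. Its other Ctrl values were 0, 0.609 and 0.0642 FPKM, and its OE values were 0.0841, 0.0854, 0.0265 and 1.49 FPKM. In Flox and cKO it did not exceed 0.201 FPKM, or 6 fragments. *Cd3d*, the third chain, reached 1.30 FPKM in Ctrl5 and 0.229 FPKM in OE4, did not exceed 0.133 FPKM in any other library, and was at 0 in all 4 cKO libraries and in 3 of 4 Flox libraries.

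*Cd4*, the co-receptor of helper T cells, was above 0 in all 16 libraries, with 0.174, 0.0278, 0.00865 and 0.00903 FPKM in Flox and 0.00952, 0.0574, 0.00933 and 0.0789 FPKM in cKO. It was at 0.0683, 0.154, 0.0473 and 1.92 FPKM in Ctrl and at 0.00826, 0.0252, 0.0703 and 0.191 FPKM in OE. Flox16, with 19 fragments, was the only library of Flox and cKO with more than 8. *Cd8a*, a chain of the co-receptor of cytotoxic T cells, was at 0 in 7 of the 8 Flox and cKO libraries and at 0.0384 FPKM (4 fragments) in the remaining one, Flox20. It was at 0.0974, 0.0474, 0 and 2.12 FPKM in Ctrl and at 0.00916, 0.0931, 0.130 and 0.175 FPKM in OE. *Cd8b1*, its partner chain, was above 0 in 1 of these 8 libraries, with 1 fragment in cKO8, and was at 0.458, 0, 0.0887 and 1.70 FPKM in Ctrl and 0, 0, 0.0366 and 0.175 FPKM in OE. In Ctrl5 the levels of *Cd4*, *Cd8a* and *Cd8b1* thus lay within 1.70 to 2.12 FPKM, so both co-receptor types were present there.

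All 7 T-cell members, *Lck* included, were highest of the 16 libraries in Ctrl5, and 6 of the 7 were second highest in OE4. Being highest in Ctrl5 was common: of the 14138 genes that averaged 0.1 FPKM or more in the HFD table, 43.8% were highest there. Ctrl5 held between 69.2% (*Cd8b1*) and 82.3% (*Cd3e*) of the 8-library sum of each of the 6 surface genes. For *Lck* the share was 45.6%, and for *Cd79a* it was 6.69%.

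Other leukocyte genes were also highest in Ctrl5, though not in every list. The sum of 7 neutrophil genes was 14.4 FPKM in Flox20 and 5.37 FPKM in Flox21 against 3.90 FPKM in Ctrl5. *Ptprc* (CD45, on all leukocytes) was at 2.06, 0.475, 0.369 and 5.07 FPKM in Ctrl and between 0.571 and 0.947 FPKM in OE. *Cd52*, another gene of lymphocytes and myeloid cells, was at 56.4 FPKM in Ctrl5 against at most 11.8 FPKM in the other libraries. The summed level of 10 genes of all leukocytes was 138 FPKM in Ctrl5, 31.0 FPKM in Ctrl1, 23.3 FPKM in OE4 and between 5.49 and 17.8 FPKM elsewhere. The sum of 13 macrophage genes was 581 FPKM in Ctrl5 against at most 179 FPKM (Ctrl1), that of 11 NK and cytotoxic genes 40.3 FPKM against at most 8.48 FPKM (OE4), and that of 5 erythroid genes 1701 FPKM against at most 438 FPKM (Ctrl1). *Nkg7* of cytotoxic granules was at 6.33 FPKM and the T- and NK-cell chemokine *Ccl5* at 28.8 FPKM in Ctrl5. A list of 9 lymph node stroma genes summed to 20.3 FPKM in Ctrl5 to between 3.52 and 12.6 FPKM in the other HFD libraries, and to 30.0 FPKM in Flox21 and 21.2 FPKM in Flox20, where 11 genes of it were listed. *Ccl19*, a chemokine of lymph nodes, was at 9.50 FPKM in Ctrl5 and at no more than 2.77 FPKM elsewhere. The acinar share was lowest in Ctrl5, at 2.18%. The part of these in the T-cell levels was not tested.

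Set against *Ptprc*, a ratio chosen after the values were seen, the summed CD3 genes were at 2.17 in Ctrl5, 2.13 in OE4 and 1.57 in Ctrl2, and between 0 and 0.594 in the other 13 libraries. The 3 *C1q* genes of macrophages, set against *Ptprc* in the same way, were at 78.1 in Ctrl5 and 88.1 in OE4, inside the range of 56.9 to 155 over all libraries. Ctrl5 and OE4 thus stood together in CD3 per *Ptprc* although *Ptprc* itself was 5.07 FPKM in one and 0.947 FPKM in the other.

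**Figure D2:**
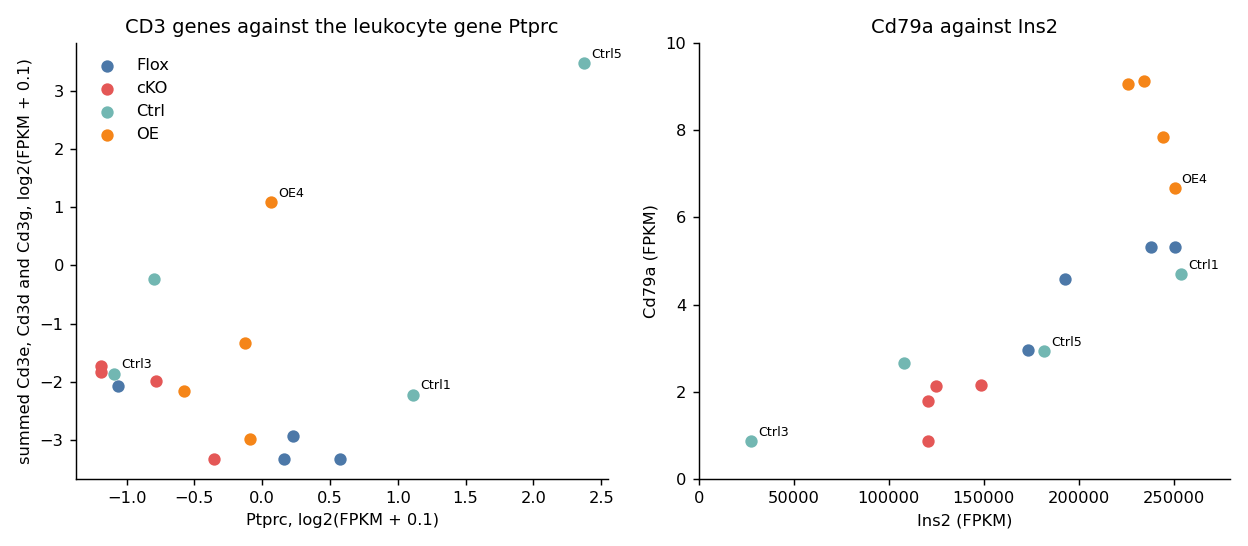
Left, summed Cd3e, Cd3d and Cd3g against Ptprc, both as log2(FPKM + 0.1), and right, Cd79a against Ins2, both in FPKM, with 1 point per library coloured by group. On the left Ctrl5 and OE4 lie highest, with 2.17 and 2.13 FPKM of summed CD3 genes per FPKM of Ptprc, and on the right Ctrl5 lies among the other Ctrl points, at 2.93 FPKM of Cd79a.

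*Lck*, the kinase of early T-cell receptor signalling, differed from the surface genes in being above 0 in all 16 libraries. It was at 0.609, 0.126, 0.0914 and 0.341 FPKM in Flox and at 0.359, 0.202, 0.366 and 0.372 FPKM in cKO. It was at 0.678, 0.361, 0.0143 and 3.61 FPKM in Ctrl and at 0.561, 0.735, 0.766 and 1.18 FPKM in OE. The groups overlapped in both comparisons, and the Flox libraries spanned the cKO range. In Flox21 *Lck* had 25 fragments while the 6 surface genes had 1 fragment between them, and in cKO12 it had 26 fragments and they had 1. The tables give 1 value per gene, so which of its 2 RefSeq starts was used was not analysed here.

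*Cd79a*, the signalling chain of the B-cell receptor, was the member with the highest level in 15 of the 16 libraries, all but Ctrl5, and was above 0 in all of them, and it was the 1 member whose groups did not overlap in either comparison. It was at 2.95, 4.59, 5.33 and 5.32 FPKM in Flox and at 2.14, 1.79, 2.13 and 0.854 FPKM in cKO, so every cKO library was below every Flox library. It was at 4.70, 2.67, 0.852 and 2.93 FPKM in Ctrl and at 7.84, 9.13, 9.07 and 6.67 FPKM in OE, so every OE library was above every Ctrl library. These values rest on 93, 143, 178 and 170 fragments in Flox, 65, 54, 66 and 25 in cKO, 139, 90, 26 and 84 in Ctrl and 274, 314, 335 and 232 in OE. Groups that did not overlap were found for 15.7% of the 13911 genes tested in cKO and Flox, with cKO below for 14.2% and above for 1.52%. In OE and Ctrl this held for 6.56% of the 14138 genes tested, with OE above for 5.41% and below for 1.15%.

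The other member of the B lineage, *Ms4a1*, and 5 further B-lineage genes (*Cd79b*, *Cd22*, *Cr2*, *Pax5* and *Ebf1*) were lower. Not all genes of the B-cell lists were as low. *Cd72*, *Lyn* and *Plcg2* of the B-cell receptor pathway, which myeloid cells also express, reached 25.2, 3.75 and 5.05 FPKM, each in Ctrl5. *Blnk* of that pathway was between 0.327 FPKM (OE2) and 3.20 FPKM (Ctrl5). *Cd37* of the B-cell identity list reached 3.59 FPKM in Ctrl5, where *Cd79a* was at 2.93 FPKM. *Ms4a1* was at 0 in 11 of 16 libraries and at no more than 0.0470 FPKM, or 4 fragments, in the others, with 14 fragments in all 16 libraries together. *Cd79b*, the obligate partner of *Cd79a*, was between 0 and 0.268 FPKM in Flox and cKO and between 0.0267 and 0.995 FPKM in Ctrl and OE, with its highest value in Ctrl5. In that library *Cd79a* was 2.95 times *Cd79b*, and in the other 14 libraries with any *Cd79b* it was between 7.68 and 209 times. *Pax5*, the transcription factor of B-cell identity, did not exceed 0.0229 FPKM, and *Cr2*, a complement receptor, 0.0304 FPKM in any library. Of 13 genes of B-cell identity, 9 had a mean below 0.1 FPKM in Flox, 10 in cKO, 8 in Ctrl and 9 in OE, and their sum was between 0.315 and 1.62 FPKM in 15 libraries and 6.15 FPKM in Ctrl5. In the 4 OE libraries, where *Cd79a* was highest, *Ms4a1*, *Pax5* and *Cr2* did not exceed 0.0208 FPKM.

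**Figure D3:**
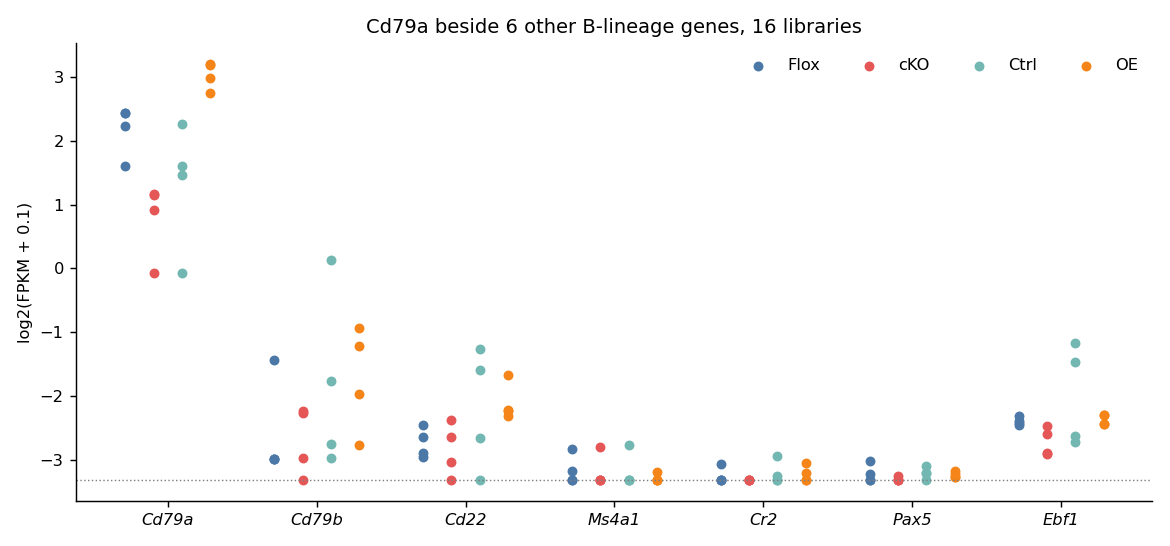
Level of Cd79a and of 6 other B-lineage genes as log2(FPKM + 0.1) in the 16 libraries, with 1 point per library, coloured by group, and a dotted line at 0 FPKM. Cd79a lies between 0.852 and 9.13 FPKM, and the other 6 genes lie at or under 0.995 FPKM, the level of Cd79b in Ctrl5. Genes of the B-cell lists that are not plotted, such as Blnk, Cd37 and Cd72, reached higher levels in Ctrl5.

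The genes whose levels were most like that of *Cd79a* were sought among 13619 genes that averaged 0.1 FPKM or more in both tables, by the smaller of 2 Pearson correlations of log2(FPKM + 0.1), 1 per table over 8 libraries. The top 5 were *Prrt3* (0.95), *Jph3* (0.95), *Foxo3* (0.94), *Taf5l* (0.94) and *Itga3* (0.94). The zinc transporter gene *Slc30a8* of the insulin granule ranked 7 (0.93) and *Ins2* ranked 48 (0.91). Other beta-cell genes ranked lower, with *Iapp* at 996 (0.82) and the insulin gene *Ins1* at 4715 (0.67). *Ptprc* ranked 10625 (0.11) and the acinar gene *Cpa1* 13165 (-0.76). The libraries of a table differ widely in their acinar share, as given above, and all genes of a library share its mix of tissue and its depth, so these correlations are a description. For *Cd3e* the top 5 were *Msx1* (0.76), *Fanca* (0.73), *E2f7* (0.71), *Anln* (0.71) and *Ncaph* (0.71), and in the Flox and cKO table this rests on 10 fragments of *Cd3e* in 3 libraries. For *Cd3e*, *Ins2* ranked 8211 and *Ptprc* 13172. The rank of *Ptprc* comes from Flox and cKO, where its correlation with *Cd3e* was -0.54, while in Ctrl and OE it was 0.81. *Cd3e* itself averaged 0.0281 FPKM in Flox and cKO, under the minimum set for ranked genes. The other CD3 genes were also under it there and were not ranked.

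Because *Cd79a* ranked closer to *Ins2* than to *Ins1*, its level was also set against *Ins2*, a ratio chosen after the values were seen. Per 100000 FPKM of *Ins2*, *Cd79a* was at 1.70, 2.38, 2.24 and 2.12 FPKM in Flox and at 1.44, 1.49, 1.71 and 0.709 FPKM in cKO. It was at 1.85, 2.47, 3.12 and 1.61 FPKM in Ctrl and at 3.21, 3.89, 4.01 and 2.66 FPKM in OE. On this scale the groups overlapped in both comparisons, narrowly for cKO12 and Flox16, while the means kept their order (1.34 ± 0.434 in cKO and 2.11 ± 0.290 in Flox, 3.44 ± 0.629 in OE and 2.26 ± 0.674 in Ctrl, SD, n = 4 each).

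The comparison of cKO with Flox asks what loss of B7-H4 from insulin-producing cells does to the islet transcriptome. The cKO mice carried RIP-Cre and the Flox mice did not, and no library came from mice with Cre alone. Effects of the transgene and of B7-H4 loss therefore cannot be told apart here. *Cd79a* was lower in cKO, and *Lck*, the 1 T-cell member that could be fitted, was not called. Of the 9 members, 2 (*Lck* and *Cd79a*) averaged 0.1 FPKM or more and entered the fit, and 1 of them was called, against 2.56% of the 13911 genes tested (1.88% called lower and 0.676% called higher in cKO). *Cd79a* had a mean of 1.73 ± 0.606 FPKM in cKO and 4.55 ± 1.12 FPKM in Flox (SD, n = 4 each), a log2 fold change of -1.39 (SE 0.28, adjusted p = 0.0221, limma with Benjamini-Hochberg adjustment). The median of all genes tested was itself at -0.36. *Lck* had a log2 fold change of 0.29 (95% interval -0.53 to 1.12, adjusted p = 0.568). For the 7 members under the filter an exact two-sided permutation test gave p between 0.429 and 1. With 4 libraries against 4 this test can reach 0.0286 at the least, and it gave *Cd79a* that smallest value. *Cd3e*, *Cd3d*, *Cd8a*, *Cd8b1* and *Ms4a1* were at 0 in most of these libraries and cannot reach it, because libraries tied at 0 are interchangeable. For *Cd3d*, *Cd8a* and *Cd8b1*, each above 0 in a single library, the outcome was fixed in advance, so the test decides nothing for them. The acinar share was between 7.45% and 35.7% in Flox and between 36.4% and 46.1% in cKO, so it separated the groups as well. With libraries rescaled outside the acinar genes the *Cd79a* fold change was -1.04 (adjusted p = 0.0885) and with median-of-ratios scaling -1.02 (adjusted p = 0.0728), so the direction held and the call did not. The call was also lost without Flox20 (-1.30), Flox21 (-1.30), cKO9 (-1.43) or cKO38 (-1.10).

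The comparison of OE with Ctrl asks what B7-H4 raised in islet cells does on HFD. No member passed the adjusted threshold, against 0.0778% of the 14138 genes tested. In limma, 845 of these genes had an unadjusted p under 0.05, and *Cd79a* was the 1 such member of the 8 tested. Its mean was 8.18 ± 1.17 FPKM in OE and 2.79 ± 1.57 FPKM in Ctrl (SD, n = 4 each), a log2 fold change of 1.72 (SE 0.52, adjusted p = 0.601, limma), with the median of all genes tested at 0.48. The exact permutation test gave p = 0.0286, the smallest it can give, unadjusted for the 18 tests of 9 members in 2 comparisons. With median-of-ratios scaling the value was 1.19 (SE 0.22, adjusted p = 0.0804), and rescaled outside the acinar genes 1.18 (adjusted p = 0.130). Without Ctrl5 the log2 fold change of *Cd79a* was 1.82, and without Ctrl3 it was 1.26. The acinar share was between 11.2% and 14.6% in OE and between 2.18% and 75.4% in Ctrl.

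The T-cell members had means between 0.0529 FPKM (*Cd8b1*) and 0.810 FPKM (*Lck*) in OE and between 0.364 FPKM (*Cd3d*) and 1.88 FPKM (*Cd3g*) in Ctrl, and none of these differences passed the test. Of their log2 fold changes, 6 were below 0, from -1.41 for *Cd8b1* (95% interval -2.95 to 0.12, adjusted p = 0.601) to -0.57 for *Cd8a* (adjusted p = 0.700), and *Lck* was at 0.50 (adjusted p = 0.734), all in limma. The Ctrl means turned on Ctrl5: without it the mean of *Cd3e* was 0.0675 instead of 0.767 FPKM, that of *Cd3g* 0.225 instead of 1.88 FPKM that of *Cd8a* 0.0483 instead of 0.567 FPKM, and those of *Cd3d*, *Cd4* and *Cd8b1* were 0.0540, 0.0899 and 0.182 FPKM. *Cd3e*, *Cd3d*, *Cd4* and *Cd8a* reached a mean of 0.1 FPKM through that library and left the fit without it, the fold change of *Cd3g* turned to 0.35 (SE 0.83), that of *Cd8b1* was -0.65 (SE 0.58) and that of *Lck* was 1.36 (SE 0.60, adjusted p = 0.260). Without Ctrl3, where *Lck* had 1 fragment, its fold change was -0.31 (SE 0.58). No T-cell member passed the adjusted threshold with or without Ctrl5.

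**Figure D4:**
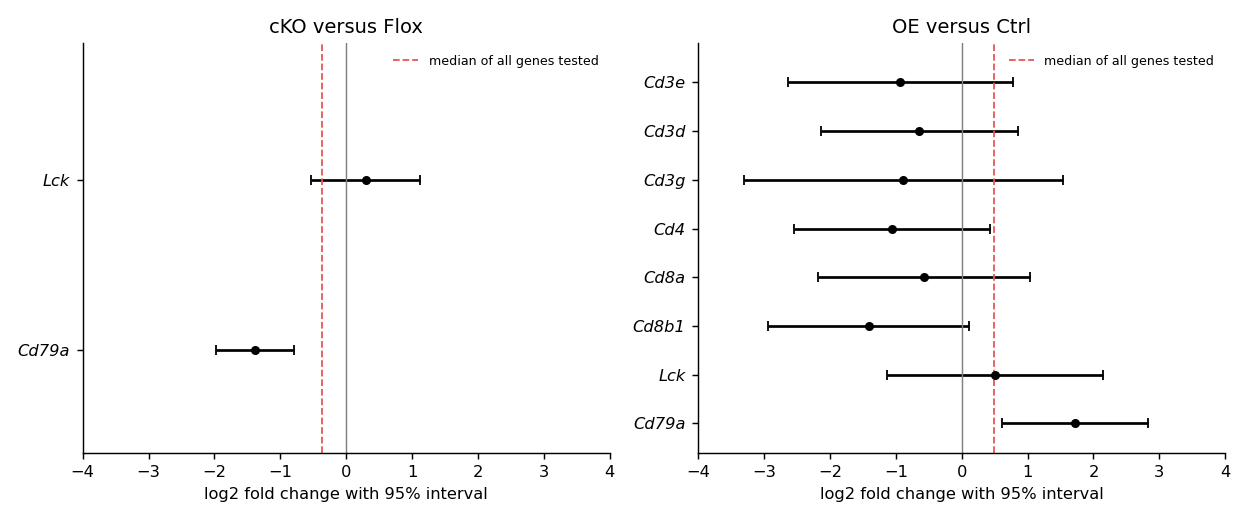
Log2 fold change of the members that entered the fit, with the 95% interval as a horizontal bar, cKO against Flox on the left and OE against Ctrl on the right, a grey line at 0 and a dashed red line at the median of all genes tested (-0.36 and 0.48). The intervals of all T-cell genes cross 0, and those of Cd79a, at -1.39 and 1.72, do not.

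Flox and cKO were deposited in one table and Ctrl and OE in another, so levels are set side by side without a test. The highest values among the 8 Flox and cKO libraries were 0.180 FPKM of *Cd3e*, 0.174 FPKM of *Cd4* and 0.0384 FPKM of *Cd8a*, and among the 6 HFD libraries other than Ctrl5 and OE4 they were 0.0925, 0.154 and 0.130 FPKM. Ctrl5 and OE4 were set aside after their values were seen and no Flox or cKO library was, which lowers the HFD side in advance. For *Cd3e* and *Cd4* these 6 HFD libraries did not pass the highest Flox or cKO library. They did for *Cd3g* (0.609 FPKM in Ctrl2 against 0.201 FPKM), *Cd3d* (0.133 against 0.0850 FPKM), *Cd8a* and *Cd8b1* (0.458 against 0.0223 FPKM). *Cd79a* by group mean ran from cKO (1.73 FPKM) to Ctrl (2.79 FPKM), Flox (4.55 FPKM) and OE (8.18 FPKM). In that order the neighbours cKO and Ctrl overlapped in their libraries, as did Ctrl and Flox, and OE lay above all other groups.

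The T-cell receptor pathway beyond the members was followed with a list of 26 genes, 7 of them members, of which 21 were listed for Flox and cKO and 23 for Ctrl and OE. The receptor constant genes *Trac*, *Trbc1* and *Trbc2* were not analysed here. In cKO against Flox 7 of the genes were tested, and their median log2 fold change was -0.09 beside -0.36 for all genes. In OE against Ctrl 19 were tested and none was called by limma, with a median of -0.57 beside 0.48. Of the 19, 1 had an unadjusted p under 0.05 in limma, beside 845 of all 14138 genes. Without Ctrl5, 13 were tested, and the median was 0.24 beside 0.76 for all genes. *Zap70*, the kinase recruited by CD3, was at 2.07 FPKM in Ctrl5 and at no more than 0.299 FPKM in the other libraries. *Skap1*, an adaptor of this pathway, had a different pattern and was between 1.92 and 18.1 FPKM in all 16 libraries, lowest in Ctrl3, and *Fyn* was between 0.962 and 3.91 FPKM.

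Among 17 genes of T-cell identity, 2 were tested in cKO against Flox and 7 in OE against Ctrl, and none was called by limma (0 at an unadjusted p under 0.05). Of all genes tested, 5270 of 13911 in cKO against Flox and 845 of 14138 in OE against Ctrl had such a p in limma. *Thy1*, a surface protein of T cells and of some other cell types, was at 13.6 FPKM in Ctrl5 and between 0.400 and 3.61 FPKM elsewhere. Of the 15 identity genes listed for cKO, 6 were at 0 in all 4 cKO libraries. None of the NK and cytotoxic genes tested, 1 in cKO against Flox and 4 in OE against Ctrl, was called by limma (0 at an unadjusted p under 0.05). The same counts were 0 and 0 for the B-cell identity genes, of which 4 and 5 were tested.

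In the B-cell receptor pathway, a list of 19 genes, 12 were listed for Flox and cKO, 6 were tested and 1, *Cd79a*, was called lower in cKO, with a median log2 fold change of -0.47 beside -0.36. The immunoglobulin constant genes were not analysed here. *Plcg2*, an enzyme of this pathway that myeloid cells also express, was at 0.986 FPKM in cKO and 1.88 FPKM in Flox (log2 fold change -0.83, adjusted p = 0.0561, limma), and *Cd72*, a B-cell and macrophage receptor, was at 1.13 FPKM in cKO and 1.60 FPKM in Flox. In OE against Ctrl 9 were tested and none was called by limma (1 at an unadjusted p under 0.05), with a median of 0.12 beside 0.48, and without Ctrl5 8 were tested with a median of 0.70 beside 0.76. In the plasma cell list *Derl3*, which acinar cells also express, was called higher in cKO (44.0 against 20.3 FPKM, log2 fold change 1.23, adjusted p = 0.0325, limma), while the other 3 genes tested had log2 fold changes below 0 and the median of the 4 was -0.81. These were *Jchain*, the joining chain of secreted antibodies (-1.35, adjusted p = 0.0542), *Prdm1*, a transcription factor of plasma cells (-0.98, adjusted p = 0.0477, under the fold minimum), and *Mzb1* (-0.64, adjusted p = 0.298), all in limma. *Jchain* was at 6.84 FPKM in Ctrl5 and at no more than 1.38 FPKM elsewhere. None of the 10 pan-leukocyte genes was called by limma in either comparison. An unadjusted p under 0.05 in limma was found for 4 of them in cKO against Flox and 0 in OE against Ctrl. The same held for 5270 of all 13911 genes and 845 of all 14138. The pan-leukocyte medians were -0.63 beside -0.36 in cKO against Flox and -0.63 beside 0.48 in OE against Ctrl. Without Ctrl5 the latter was 0.18 beside 0.76. Of 10 beta-cell genes 1, *Ucn3*, was called lower in cKO (log2 fold change -1.08, adjusted p = 0.0339, limma). The calls of *Derl3* and *Ucn3* were each lost under 9 of 17 alternatives.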

How the data were processed

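RNA-seq was made from islets isolated with collagenase and picked by hand. The authors deposited FPKM values per gene in 2 tables, 1 for Flox and cKO and 1 for Ctrl and OE. The build named in the submitters' processing notes is mm10; the aligner and counter are not given in the sources used here. The summed FPKM per library was between 686300 and 865110, and absolute depth was not given. Columns were matched to libraries by name, and 0 columns were left unused. Within each table limma (version 3.58.1, R 4.3.3; trended, robust empirical Bayes) was fitted to log2(FPKM + 0.1) of genes averaging 0.1 FPKM or more, so fold changes of low genes are understated. Genes were called at a Benjamini-Hochberg adjusted p under 0.05 and a log2 change over 1, 2-sided. The code was tested on simulated data. Members were also compared by exact permutation tests. Named genes were the members, *Ptprc*, *Cd52*, list genes that were called or among the 3 highest of their list, and the 5 genes most like *Cd3e* and *Cd79a*; others were named after their values were seen. Some list genes and their calls are not reported here. The members and lists were chosen with earlier results of these data known.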

Additional observations from a re-analysis of the deposited data

Results flagged for a closer look

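In groups of 4 libraries, a library was set apart where its gap to the nearest other library, divided by the range of the group, exceeded the 95% critical value of Dixon for 4 samples. Over the 33 member and group combinations with any spread, 16 did so. The critical value gives about 1 in 20 for normally distributed values, which FPKM of few fragments are not. The members also share their libraries, so the 16 cannot be set against that rate. Ctrl5 accounted for 6 of them: *Cd3e* at 2.87 FPKM, *Cd3d* at 1.30 FPKM, *Cd3g* at 6.84 FPKM, *Cd4* at 1.92 FPKM, *Cd8a* at 2.12 FPKM and *Ms4a1* at 0.0470 FPKM, each above the other 3 Ctrl libraries. OE4 was above the other OE libraries in *Cd3g*, at 1.49 FPKM.

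In 7 of the 16, the other 3 libraries were at 0, so that 1 to 4 fragments set the library apart. These were *Cd3e* at 0.0219 FPKM and *Cd3d* at 0.0850 FPKM in Flox17, *Cd8a* at 0.0384 FPKM in Flox20, *Cd8b1* at 0.0223 FPKM in cKO8, *Ms4a1* at 0.0435 FPKM in cKO12 and at 0.00910 FPKM in OE3, and the value of *Ms4a1* in Ctrl5 given above. The remaining ones were *Cd3e* at 0.180 FPKM in cKO8, *Cd4* at 0.174 FPKM in Flox16, and *Lck* at 0.202 FPKM in cKO9, the last being a low value.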

How the results depend on the processing

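*Cd79a* was lower in cKO under all 17 alternatives, with log2 fold changes between -1.58 and -1.02, and higher in OE under all 18, between 1.18 and 2.13, where the adjusted p ranged from 0.0804 to 0.869. The count of members called in cKO against Flox was 0 in place of 1 with no filter on low values, median-of-ratios scaling, rescaling outside the acinar list, or plain empirical Bayes moderation, and 0 to 1 with 1 library left out. In OE against Ctrl it was 0 under all alternatives. All genes called in cKO against Flox numbered 356, and 149 with a pseudocount of 0.5, 75 with 1, 0 without the filter (5564 at an unadjusted p under 0.05 in limma), 155 with a 0.5 FPKM filter and pseudocount 0.5, 48 with median-of-ratios scaling, 42 rescaled outside the acinar list, 3 with plain moderation, 1298 with the 3 libraries per group of the study's heatmaps, 1259 without the fold minimum, and 1 to 1021 with 1 library left out. Lower calls were 73.6% of these in the fit as reported, 35.4% with median-of-ratios scaling and 28.6% rescaled outside the acinar list. In OE against Ctrl they numbered 11, and 6 with a pseudocount of 0.5, 4 with 1, 4 with the 0.5 FPKM filter, 19 rescaled outside the acinar list, 5 with the 3 libraries per group, 5 to 11 with 1 library left out and 6 without Ctrl5 and OE4, an alternative chosen after seeing the data. *Lck* in OE against Ctrl was at -0.0086 with a pseudocount of 1 and between -0.31 (without Ctrl3) and 1.36 with 1 library left out, and *Cd3g* was between -1.71 and 0.35 (without Ctrl5). The cause of these changes was not tested.

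With the replicate number as a block, 574 genes were called in cKO against Flox and 20 in OE against Ctrl, and no call of a member changed. Libraries with the same number did not deviate together over all genes, with correlations of deviations between -0.133 and 0.130. Differences in tissue mix also enter these correlations, so they cannot exclude a shared litter or batch.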
